A study of Mus musculus with 2 samples.

Results

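Rab proteins are small GTPases of the Ras superfamily that mark the membranes of the cell. Loaded with GTP, a Rab sits on one kind of membrane and recruits effectors (tethers, motors, fusion factors). Exchange factors load it and GTPase-activating proteins switch it off, while a lipid anchor added by a prenyltransferase holds it in the membrane. In neutrophils, Rab proteins are known for the release of granules and for the ripening of phagosomes. The Rab genes were taken as all probe sets with a single gene whose platform symbol is Rab followed by a number and, at most, a letter and a further digit. Rab effectors, Rab-like genes and antisense transcripts stayed out. This gave 59 genes of 18194 measured, read by 132 probe sets, and all 59 symbols matched their gene identifiers in the mouse RefSeq annotation.

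The cells were neutrophils of C57BL/6 mice, an inbred strain, sorted from bone marrow as viable cells high in Gr-1 and negative for CD48. There was 1 group of 2 samples, replicate 1 and replicate 2, each from its own experiment and hybridised to 1 expression array. No allele, treatment or age is given in the sources used here, nor whether a sample pooled several mice. All 12 measured genes of the neutrophil marker list were above background, among them Ltf and S100a8, while Ly6g and Retnlg were not analysed here. Of 57 measured marker genes of 7 lists for other marrow cells, 13 were above background, 6 of them in the monocyte and macrophage list.

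Each value is a MAS5 signal, a linear brightness of a probe set scaled to the same trimmed mean on both arrays. Background was the 95th percentile of 87 probe sets of sensory receptor genes, which lay at 131 for replicate 2 and 108 for replicate 1. A gene counts as above background if any of its probe sets exceeded this on both arrays, and its signal is that of its brightest probe set. Probe sets differ in how strongly they bind, so signals are compared between arrays and not between genes. With 1 array per experiment, differences carry no p-value, and the arrays' number limits the precision. In a sorted bulk sample, fewer cells of a type and less RNA per cell cannot be told apart.

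Of the 59 Rab genes, 41 (69.5%) were above background on both arrays, against 40.4% of all measured genes, a share that would give 23.8 of 59. By probe set the count was 77 of 132 (58.3%), against 35.5% of all single-gene probe sets. Rab2b and Rab13 were above background on replicate 1 alone, and 16 Rab genes were above it on neither array. Of the 41 genes, 4 lay under 2 times the background on both arrays (Rab3a, Rab7b, Rab19 and Rab36). Rab7b, at signals of 135 on replicate 2 and 112 on replicate 1, lay just above the line, and Rab13, at 115 and 134, just below it on replicate 2.

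**Figure D1:**
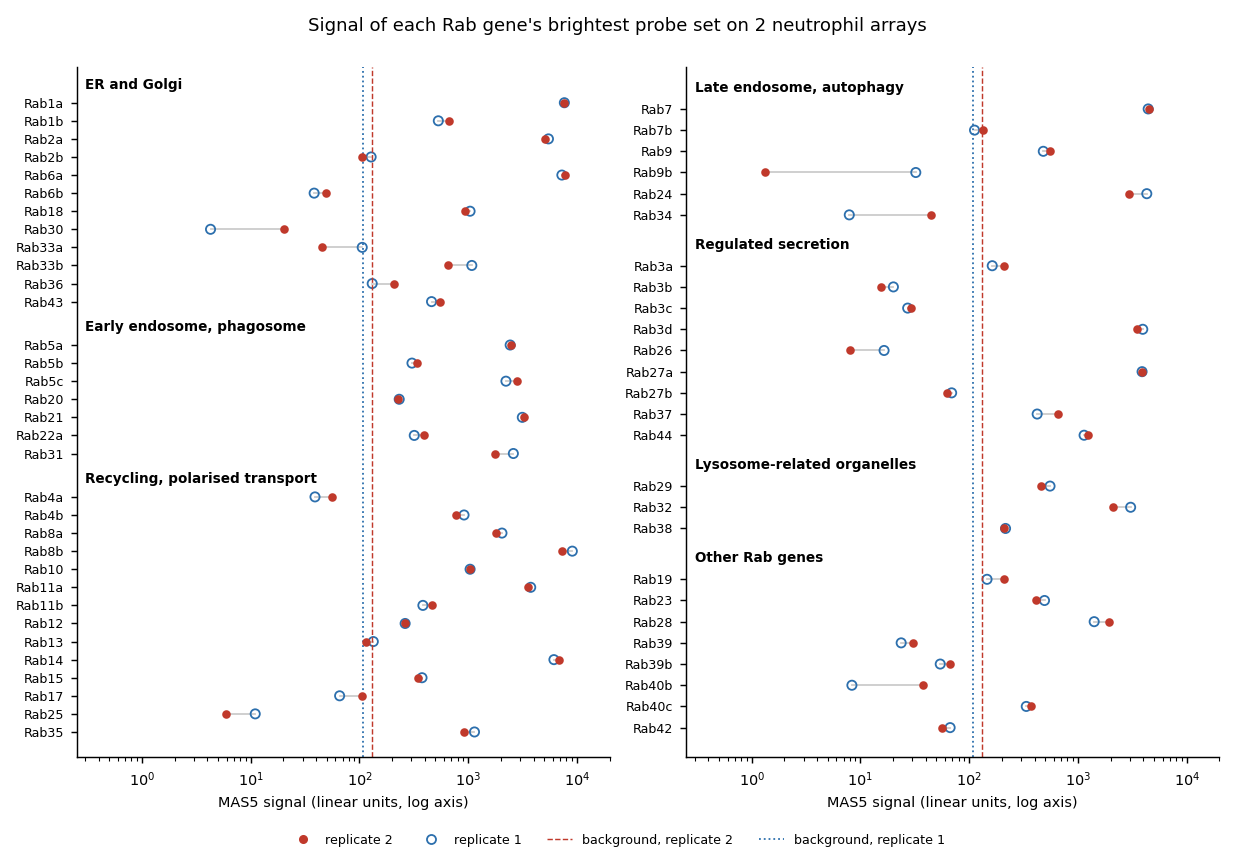
MAS5 signal (linear units on a log axis) of the brightest probe set of each of 59 Rab genes, grouped by role. Filled points are replicate 2, open circles replicate 1, and vertical lines the background of each array. In 41 genes both points lie to the right of their lines, and the pairs lie close together there, while pairs left of the lines are often far apart.

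Rab genes of regulated secretion differed in detection, and the promoter sequences of 3 of them are shown for this contrast: Rab27a and Rab3d were above background, Rab3b was not. Rab27a drives granule docking in neutrophils and other secretory cells, and the Rab3 proteins act in regulated exocytosis. The windows are the 250 bases before the annotated start, on the gene's strand (RefSeq, GRCm38.p6). Capitals mark 3 motifs, searched on both strands. The GC box is GGGCGG. The CCAAT box has the letters of its name. The TATA box is TATAAA. Rab27a has 2 annotated starts.
Rab27a, first start, chr9:73044560-73044809, plus strand: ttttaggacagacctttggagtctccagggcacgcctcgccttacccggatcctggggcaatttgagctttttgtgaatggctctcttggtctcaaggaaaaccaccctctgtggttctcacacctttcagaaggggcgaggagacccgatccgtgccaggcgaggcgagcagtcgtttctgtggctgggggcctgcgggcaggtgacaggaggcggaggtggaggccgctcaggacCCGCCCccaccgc
Rab27a, second start, chr9:73063898-73064147, plus strand: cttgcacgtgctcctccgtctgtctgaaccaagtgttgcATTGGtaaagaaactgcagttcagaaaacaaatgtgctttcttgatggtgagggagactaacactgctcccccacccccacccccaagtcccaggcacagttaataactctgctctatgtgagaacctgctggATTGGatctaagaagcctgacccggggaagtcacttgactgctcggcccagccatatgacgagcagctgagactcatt
Rab3d, chr9:21918184-21918433, minus strand: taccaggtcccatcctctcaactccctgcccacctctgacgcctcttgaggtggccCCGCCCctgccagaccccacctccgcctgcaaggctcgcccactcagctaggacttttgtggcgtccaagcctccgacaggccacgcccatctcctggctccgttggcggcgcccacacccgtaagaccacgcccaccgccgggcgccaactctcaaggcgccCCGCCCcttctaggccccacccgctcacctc
Rab3b, chr4:108878820-108879069, plus strand: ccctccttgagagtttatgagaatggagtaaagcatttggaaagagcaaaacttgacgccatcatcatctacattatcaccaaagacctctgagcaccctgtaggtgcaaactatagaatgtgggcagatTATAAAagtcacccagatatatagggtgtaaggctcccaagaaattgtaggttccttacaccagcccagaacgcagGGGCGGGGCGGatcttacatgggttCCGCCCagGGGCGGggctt

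The first Rab27a window held 1 GC box, 13 bases before the start, and the second held 2 CCAAT boxes and no GC box. The Rab3d window held 2 GC boxes. The Rab3b window held 4, of which the first 2 overlap by 1 base, and a TATA box 120 bases before the start. The window of Rab3c, also above background on neither array and not shown, held a GC box and a CCAAT box but no TATA box. GC content was 62.0% and 51.6% in the Rab27a windows, 69.2% in Rab3d and 48.8% in Rab3b.

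Over the family, 48 of 59 Rab genes had an entry in the promoter table, with 60 starts in all. A GC box was in 66.7% of the Rab windows, against 32.7% of 32851 windows of all genes. It was in 30 of 44 windows (68.2%) of Rab genes above background and in 10 of 16 (62.5%) of the others. The ratio of observed to expected CpG had a median of 0.75 in windows of genes above background, 0.52 in the other Rab windows and 0.37 in all windows. A CCAAT box was in 40.0% of Rab windows and 33.8% of all. A TATA box was in 1 of 44 windows of genes above background, in 3 of 16 of the others and in 12.4% of all. The PU.1 motif (AGAGGAAG, either strand) is named for a transcription factor of myeloid cells. It was in 3 of 60 Rab windows (5%), those of Rab12, Rab32 and Rab33b, and in 3.67% of all, a share near that of the Rab windows. These are matches of letters in a fixed window, and windows of a gene with several starts are not independent.

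Of the 9 genes of regulated secretion, 5 were above background. Rab27a had signals of 3862 on replicate 2 and 3889.7 on replicate 1 (log2 11.92 ± 0.01, SD, n = 2). Rab3d, found on secretory granules of exocrine and blood cells, had 3478 and 3947 (11.86 ± 0.13, SD, n = 2). Both genes were thus far above background, with arrays that nearly coincided. Rab44, a large Rab with calcium-binding EF hands, had 1247 on replicate 2 and 1139.6 on replicate 1 (10.22 ± 0.09, SD, n = 2). Rab37, which acts in secretion from mast cells and other cells, had 657 and 422, a log2 difference of 0.64, and its other probe set was also higher on replicate 2 (319 and 238). Rab3a, the Rab of synaptic vesicles, had 207 and 163 on a probe set of the kind that can bind other transcripts, while its second probe set had 28.6 and 15.7. Rab3b, Rab3c, Rab26 and Rab27b were above background on neither array. For Rab27b, the close paralogue of Rab27a, all 4 probe sets were below it, with 62.1 and 69.0 on the brightest.

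All 7 genes of early endosomes and phagosomes were above background, with all 13 of their probe sets. Rab5 proteins govern fusion of early endosomes and of young phagosomes. Rab5a had signals of 2462 on replicate 2 and 2431 on replicate 1 (11.26 ± 0.01, SD, n = 2). Rab5c had 2793 and 2223, and Rab5b had 336 and 304, so that all 3 isoforms were detected. Rab21, which carries integrins through endosomes, had 3266 and 3143 (11.65 ± 0.04, SD, n = 2). Rab31 and Rab22a are relatives of Rab5 that act between the Golgi and endosomes. Rab31 had 1773 on replicate 2 and 2600.4 on replicate 1, a log2 difference of -0.55, but its second probe set ran the other way (219.6 and 188). Rab22a had 396 and 319 on a probe set that can bind other transcripts. Rab20, a Rab of maturing phagosomes, had 228 and 232.

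Of 14 genes of recycling endosomes and polarised transport, 10 were above background. Rab11a, which returns cargo from recycling endosomes to the surface, had signals of 3581 on replicate 2 and 3755 on replicate 1 (11.84 ± 0.05, SD, n = 2), and Rab11b had 466 and 383. Rab14, which links Golgi, endosomes and phagosomes, had 6883 and 6139 (12.67 ± 0.12, SD, n = 2) on a probe set that can bind other transcripts. Further Rab14 probe sets were less bright, such as those with 1477 and 1853, and with 1642 and 1665. Rab8b had 7353 and 9059.8, and Rab8a had 1789 and 2043. Both Rab8 proteins direct vesicles to the plasma membrane, and Rab10, which does so too, had 1032 and 1040.4. All 3 Rab10 probe sets were above background, with log2 differences from -0.13 to 0.07. Rab4b, of fast recycling, had 779 on replicate 2 and 915 on replicate 1, whereas its paralogue Rab4a was below background on both of its probe sets. Rab35, of recycling to the surface, had 922 and 1142. Rab12 had 262 and 263, and Rab15 had 345 and 376. Rab13, of epithelial junctions, was below background on replicate 2, and Rab17 and Rab25, which are best known from epithelia, were below it on both arrays.

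Among the Rab genes of the endoplasmic reticulum and Golgi, 8 of 12 were above background. Rab1a, needed for traffic from the endoplasmic reticulum to the Golgi, had signals of 7557 on replicate 2 and 7655 on replicate 1 (12.89 ± 0.01, SD, n = 2). The log2 differences of its 3 probe sets, all above background, ran from -0.67 to 0.06. Rab2a had 5108 and 5467, and Rab6a, of the Golgi, had 7771 and 7264 on a probe set that can bind other transcripts. The other Rab6a probe sets had 4891 and 4626, and 4029.8 and 4288. The paralogues of Rab1a, Rab2a and Rab6a differed in detection. Rab1b was above background at 669 and 531, and Rab6b was below it on all 4 probe sets. Rab2b exceeded it on replicate 1 alone (106 on replicate 2 and 128 on replicate 1). Rab18, of the endoplasmic reticulum and lipid droplets, had 931 and 1039.8, and Rab43, of the Golgi, had 550.4 and 460.0. The log2 differences of the 3 Rab43 probe sets, all above background, ran from -0.57 to 0.49. Rab33b, a Golgi Rab that binds the autophagy protein Atg16l1, had 657 on replicate 2 and 1079 on replicate 1. Its log2 difference of -0.72 was the lowest among the 41 genes, on a single probe set. Rab36 had 209.8 and 131, the highest difference (0.68), but of its 3 probe sets only this one was above background on both arrays, and another had 61.9 and 153. Rab30 and Rab33a were above background on neither array.

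Of 6 genes of late endosomes and autophagy, 4 were above background. Rab7, which drives fusion of late endosomes and phagosomes with lysosomes, had signals of 4508 on replicate 2 and 4428 on replicate 1 (12.13 ± 0.02, SD, n = 2). Rab9, of transport from late endosomes to the Golgi, had 554 and 480.4. Rab24, linked to autophagy, had 2945 and 4298, a log2 difference of -0.55, and its second probe set was lower on replicate 2 as well (1491 and 1880.2). Rab9b and Rab34 were above background on neither array. All 3 genes of lysosome-related organelles were above it. Rab32, which with Rab38 supplies melanosomes and other such organelles, had 2098 on replicate 2 and 3053 on replicate 1. Rab38 had 208 and 216 on a probe set that can bind other transcripts, and its second probe set was below background. Rab29, a partner of the kinase Lrrk2, had 458 and 554.

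The remaining 8 genes have other or less settled roles, and 4 were above background. Rab28, a Rab of cilia in other cells, had signals of 1917 on replicate 2 and 1411 on replicate 1, with both probe sets higher on replicate 2. Rab23, known as a brake on Hedgehog signalling, had 409 and 493, and Rab40c, part of a ubiquitin ligase, had 369.5 and 335. Rab19 had 208 and 146. Rab39, Rab39b, Rab40b and Rab42 were above background on neither array. Across the 16 genes below background on both arrays, the signals of 32 probe sets ran from 0.593 to 106 on replicate 2 and from 0.235 to 106 on replicate 1.

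**Figure D2:**
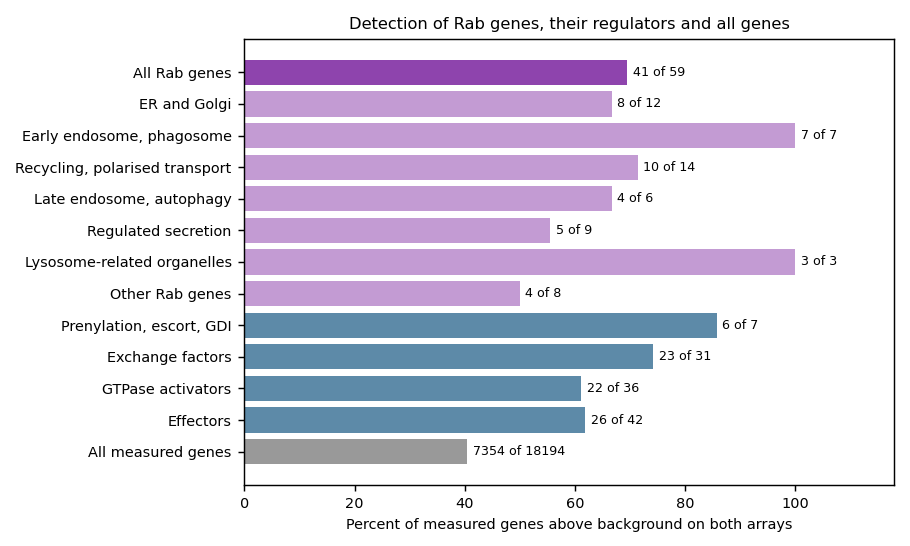
Percent of measured genes above background on both arrays for all Rab genes, for Rab genes by role, for 4 lists of regulators and effectors and for all genes, with the counts beside each bar. All Rab genes stand at 41 of 59, the early endosome genes at 7 of 7, the secretion genes at 5 of 9, and all measured genes at 7354 of 18194.

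The machinery that acts on Rab proteins was detected at similar shares. Of 116 measured regulator and effector genes, 77 (66.4%) were above background, against 40.4% of all genes. Of the 7 genes for the lipid anchor and its handling, 6 were above it. Gdi2, which extracts inactive Rab proteins from membranes, had signals of 7330.4 on replicate 2 and 6625 on replicate 1. Rabggta and Rabggtb, the subunits of the prenyltransferase, had 395 and 272, and 246 and 150.4. Chm, the escort protein that presents Rab proteins to this enzyme, had 1364 and 1701, while its paralogue Chml was below background. Rabac1, a membrane protein that binds prenylated Rab proteins, had 2116 and 2872, and Rabif, a Rab chaperone, had 1482 and 1029.

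In the exchange factor list 23 of 31 genes were above background. The list also holds Rabl6, a Rab-like gene below background, which counts in the 31 and in the 116 above. Rabgef1, Rin2 and Rin3, which activate Rab5-type proteins, had signals on replicate 2 of 863, 1204 and 1309, and on replicate 1 of 561, 1519.8 and 2047. Dennd1b, an activator of Rab35, had 1810.3 and 1416. Of the GTPase-activating genes 22 of 36 were above background, among them Tbc1d1 (640.2 and 482), Tbc1d2 (357 and 397), Tbc1d2b (990.0 and 1112) and Tbc1d5 (152 and 147), with replicate 2 first in each pair. Of the effector genes 26 of 42 were above background. Unc13d, the partner of Rab27a in granule release, had 950.4 on replicate 2 and 847 on replicate 1. Rph3al had 139 and 156, and the Rab5 effectors Rabep1 and Rabep2 had 145 and 155, and 829.8 and 987. On replicate 2, Rph3al and Rabep1 lay at only 1.06 and 1.11 times the background. They rested on 1 of 2 and 1 of 4 probe sets. Rabep2 rested on 1 of 2, a probe set that can bind other transcripts. The following were chosen after their values were seen. Lrrk2, a kinase that phosphorylates Rab8, Rab10 and Rab12 proteins, had 3285 on replicate 2 and 3349 on replicate 1. Sytl1, which links Rab27a to neutrophil granules, was below background on its 1 probe set (54.1 and 40.5).

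The arrays came from independent experiments. By the brightest probe set and the deposited scaling, none of the 41 Rab genes above background was over 2-fold apart. The share was 5.4% of all 7354 genes above background, which would give 2.2 of 41, so a count of 0 lies near that share. With scaling to the hybridisation controls the counts were 6 of 41 Rab genes and 21.6% of all genes, all 6 lower on replicate 2, since all genes then shifted by a median of -0.65. Among genes with a mean log2 signal of 9 or more, 0 of 26 Rab genes and 4.38% of all genes were over 2-fold apart. Past 1.5-fold there were 3 Rab genes (Rab33b, Rab36 and Rab37), against 20.5% of all genes, which would give 8.4. The log2 differences of replicate 2 minus replicate 1 had a median of -0.01 and an SD of 0.32 over the Rab genes, and 0.07 and 0.50 over all genes. The differences of the Rab genes ran from -0.72 to 0.68, with 20 higher and 21 lower on replicate 2. Of all 7354 genes, 4141 were higher and 3213 lower there. Across genes, which are not independent replicates, Pearson's r between the arrays was 0.986 and Spearman's rho 0.982 over 41 Rab genes, and 0.954 and 0.935 over all genes. The genes share the arrays, their scaling and a wide range of probe brightness.

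**Figure D3:**
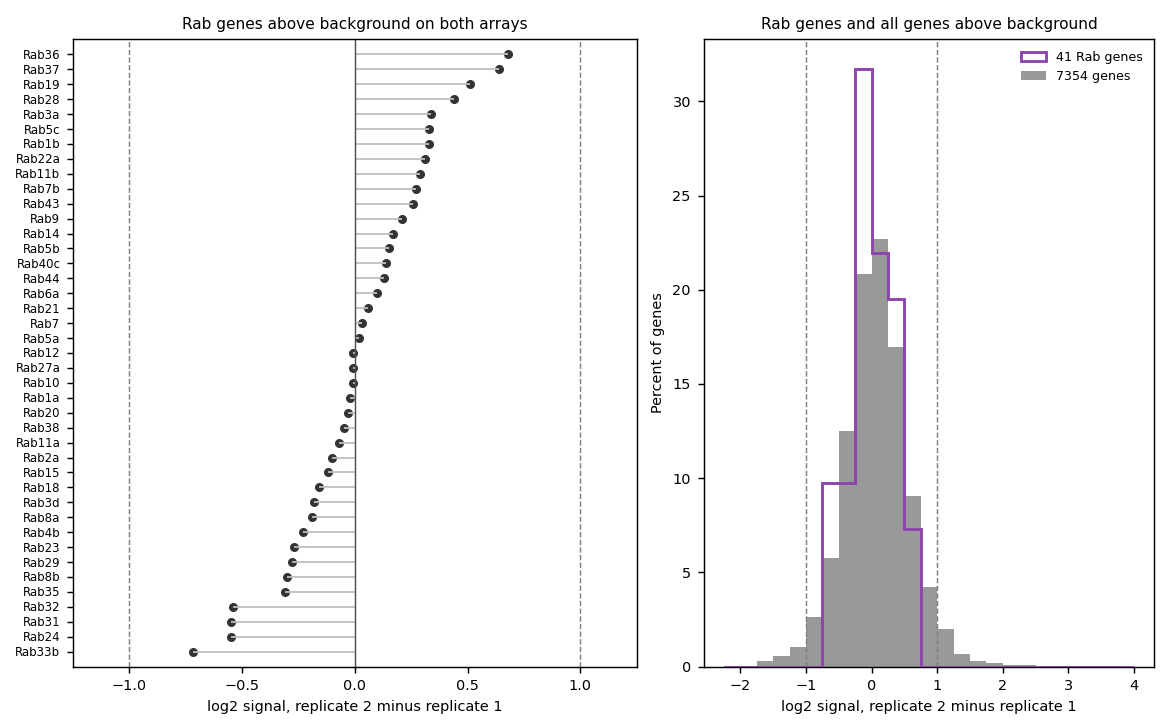
Left, log2 signal of replicate 2 minus replicate 1 for each of 41 Rab genes above background, with dashed lines at 2-fold. Right, the same differences as percent of genes for the Rab genes (outline) and for all 7354 genes above background (grey). The Rab genes lie between -0.72 and 0.68, and all genes between -2.17 and 3.72, but extremes widen with the number of genes. The quartiles were -0.18 and 0.26 for the Rab genes and -0.22 and 0.36 for all genes.

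By role, the median log2 difference was 0.13 for regulated secretion, 0.12 for late endosomes, 0.06 for early endosomes, 0.04 for the endoplasmic reticulum and Golgi, -0.09 for recycling and -0.28 for lysosome-related organelles. It was 0.29 for the 4 genes of other roles. All 3 genes of lysosome-related organelles were lower on replicate 2, and 8 of 10 recycling genes were, against 3213 of all 7354 genes above background. Some of these differences lay close to no change, such as Rab38 (-0.05), Rab10 (-0.01) and Rab12 (-0.01). The role lists are small, and no value was past 2-fold. Other genes did move between the arrays. In the list of cycling genes 11 of 19 were above background, and each of the 11 was higher on replicate 2. Their differences had a median of 2.46 (log2), and the signals of all 19 summed to 13880.2 on replicate 2 and 2813 on replicate 1. In the monocyte and macrophage list 6 of 9 were above background and 4 of the 6 were lower on replicate 2, and the signals of all 9 summed to 3061 on replicate 2 and 6729 on replicate 1. Most of that gap came from Csf1r (1928 on replicate 2 and 5020.3 on replicate 1). Adgre1 (217 and 627), at 1.65 times the background on replicate 2, was 2.89-fold lower there. Ccr2 and Fcgr1 were higher on replicate 2, but lay under 2 times the background on both arrays. In the neutrophil list 9 of 12 genes were higher on replicate 2, against 4141 of all 7354 genes above background. Ltf and S100a8 were both 1.77-fold higher there. Cxcr2 was 2.24-fold lower there (3224 on replicate 2 and 7212 on replicate 1) and Csf3r 1.70-fold lower. Kit, the 1 progenitor marker above background, had 547 on replicate 2 and 244 on replicate 1. The part of these lists in the differences of single Rab genes was not tested.

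Among the regulators 5 of 77 genes were over 2-fold apart. Evi5, a Rab GTPase-activating protein also tied to cell division, had signals of 1215 on replicate 2 and 532 on replicate 1, and its second probe set was also higher there (507 and 309). Tbc1d15, an activator of GTP hydrolysis by Rab7, had 1847 and 4401, with all 3 probe sets lower on replicate 2. Tbc1d23, a bridge between endosome vesicles and Golgi tethers, had 825 and 1711, again lower on all 3. Tbc1d24 had 569.5 on replicate 2 and 176 on replicate 1. Dennd2a, an exchange factor for Rab9, had 324 and 148, but its second probe set had 95.6 and 113. The share of 5 in 77 lies near the 5.4% of all genes. Over the 77 genes, replicate 2 was the higher array for 42 and the lower for 35, against 4141 and 3213 of all 7354 genes above background. The median difference of the 77 genes was 0.05.

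Rab genes with several probe sets gave a second reading of both calls and differences. Of 38 such genes, 16 had all probe sets above background, 10 had none, and 12 had some. Neither these counts nor the directions below were set against all genes with several probe sets. Rab2a had 3 of 7 above background. Rab14 had 6 of 7, of which 5 were lower on replicate 2, although its brightest probe set was 0.17 higher there on the log2 scale. Rab8b rested on 1 of 2, since its second probe set had signals of 6.56 on replicate 2 and 7.45 on replicate 1. Rab27a had 3 of 4 above background, with 381 and 322 on one further probe set and 369 and 241 on another. These 2 were 0.24 and 0.62 higher on replicate 2 on the log2 scale, where the brightest probe set differed by -0.01.

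In 21 genes at least 2 probe sets were above background, and in 5 of them (Rab8a, Rab11b, Rab24, Rab28 and Rab37) all these probe sets differed in the same direction. The gap between the highest and lowest difference within a gene had a median of 0.30 and a maximum of 1.89. Such a gap is not on the same footing as the SD of 0.32 between Rab genes. In the remaining genes of the 21, the direction depended on the probe set. Of the 77 probe sets above background, 1 (1.3%) was over 2-fold apart, against 4.81% of all such probe sets. This was a Rab22a probe set with signals of 134 on replicate 2, close to background, and 400.3 on replicate 1, while the other 3 probe sets of Rab22a were 0.07 to 0.31 higher on replicate 2.

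**Figure D4:**
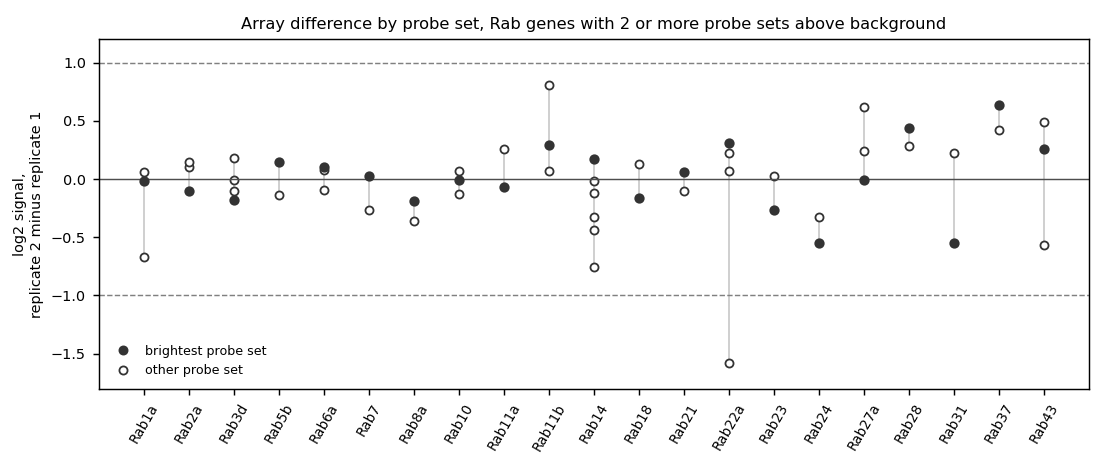
Log2 signal of replicate 2 minus replicate 1 for each probe set above background in the 21 Rab genes that had at least 2 such probe sets. Filled points are the brightest probe set of the gene, open points the others, and dashed lines mark 2-fold. A Rab22a probe set at -1.58 is the one point past 2-fold, and most genes have points on both sides of 0.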

How the data were processed

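Expression was measured on 1 array for each of 2 samples, from 200 ng of total RNA per the labels' protocols. The deposited values are linear intensities of 45101 probe sets. Per the submitters' processing notes the authors used MAS5; no version is known here. The mean without the lowest and highest 2% was the same on both arrays, so differences are relative to that scaling. GEO's platform annotation gave 1 gene for 34958 probe sets, several for 932 (no Rab gene among them) and none for 9211.

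Signals under 1 were set to 1 before log2. The brightest probe set by mean log2 signal stood for a gene, a rule that favours genes with more probe sets. Background came from 78 sensory receptor genes, of whose probe sets 2 exceeded it on both arrays. Of all probe sets, 16003 (35.5%) on replicate 2 and 17185 (38.1%) on replicate 1 did. No test was run, since there is 1 group. The members and gene lists were chosen with earlier results of these data known. All Rab genes are accounted for; among regulators, the prenylation list, genes over 2-fold apart and the first 4 above background of each other list are named. Alternatives were other percentiles and background genes, other scalings (median, quantile, 18 hybridisation control probe sets), 32 added to the signal, no filter, other probe set rules and each array alone. Python 3.11.15, numpy 2.4.6, pandas 2.3.3 and scipy 1.17.1 were used.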

Additional observations from a re-analysis of the deposited data

How the results depend on the processing

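The count of 41 Rab genes above background ran from 36 to 43 over the alternatives, and each array alone gave 41 to 43 Rab genes and 81 to 83 regulators. The share of all genes above background moved as well. It was 31% with the mean of probe sets and 32.7% at the 99th percentile, with 36 Rab genes in each. It was 45.4% at the 90th percentile and 46.3% on replicate 1 alone, with 43 Rab genes in each, and 44.2% on replicate 2 alone, with 41. Lost at the 99th percentile were Rab3a, Rab7b, Rab19, Rab36 and Rab38. Leaving out the less specific probe sets (suffixes _x_at and _s_at) lost Rab3a and Rab38, and background from genes of other organs lost Rab3a, Rab7b, Rab19 and Rab36. With the mean of a gene's probe sets, Rab3a, Rab7b, Rab12, Rab36 and Rab40c were lost. The regulator count of 77 ran from 61 to 83 and the 12 genes with split probe sets from 10 to 13. By the brightest probe set, or the mean of probe sets, no Rab gene was over 2-fold apart except without a filter (6 of 59, none above background on both arrays, against 27.1% of all genes) and with scaling to the hybridisation controls (6 of 41, against 21.6%), where the Rab median was -0.73 and that of all genes -0.65; measured from that median the count was 0. Of 53 other probe sets of the 41 genes, 4 were over 2-fold apart (1 each of Rab7b, Rab8a, Rab22a and Rab36), that of Rab22a being above background on both arrays. The 53 include probe sets below background, and no matching share over all genes was taken. A 1.5-fold limit, the level limit of 9 and the alternatives for split probe sets were chosen after seeing the data. The first gave 3. The Rab median was -0.14 with median scaling (all genes -0.06) and 0.07 with quantile normalization (all genes 0.05). The sign of 4 of 41 Rab differences turned with each, and that of 20 with the hybridisation controls, which left all 41 lower on replicate 2. It turned for 10 of 41 with the mean of a gene's probe sets, and 31 of the 53 other probe sets had the opposite sign to the brightest. Rab genes near background are limited by probe brightness, and 2 arrays give no estimate of error for a single difference. No paired analysis was possible because there is 1 group.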

Other observations

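Several genes near the Rab family lie outside the rule. Ran, the Ras-like GTPase of nuclear transport, had signals of 3591 on replicate 2 and 1514 on replicate 1, 2.37-fold higher on replicate 2, with 4 of 6 probe sets above background. Rabl3, a Rab-like gene, had 175 and 173 with 1 of 2 probe sets above background. Rabl2, Rabl6 and Rasef, a Rab with EF hands, were above background on neither array. Rab10os, annotated as a transcript opposite to Rab10, had 180.1 on replicate 2 and 241 on replicate 1, with both probe sets above background, while Rab26os and Rab11fip4os1 were above it on neither array.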
